A study of Mus musculus with 96 samples.

Results

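The 9 genes described here encode parts of the complement system: the subunits of C1q (C1qa, C1qb and C1qc), the protease C1ra, the cleaved components C3 and C4b, the receptors C3ar1 and C5ar1, and the inhibitor Serping1. They were chosen by name, and all 9 were found among the 32594 rows of both count tables. RNA was sequenced from the hippocampus, thalamus and hypothalamus on the injured side of male C57BL/6 mice, 8 to 10 weeks old, killed 3 or 29 days after injury (dpi). Each region and time point had 4 groups of 4 libraries, 96 in all: Sham + VH and Sham + CD mice had anesthesia and a scalp incision without craniectomy, and TBI + VH and TBI + CD mice had a craniectomy and a controlled cortical impact, in which a piston deforms the exposed left cortex. The sham mice therefore lacked the craniectomy as well as the impact. VH is the vehicle of saline and sodium carbonate and CD is candesartan, a blocker of the angiotensin AT1 receptor, at 0.1 mg/kg per day. Every mouse was injected at 6 h. The 3 dpi mice had further injections at 24 and 48 h, whereas the 29 dpi mice carried an osmotic pump from 24 h, so the route of the drug differed with the time point.

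Complement is a cascade of plasma and tissue proteins that tags surfaces and recruits phagocytes. In its classical pathway C1q binds a target, C1r activates C1s, which cleaves C4 and C2, and the resulting convertase cleaves C3. Fragments of C3 and C5 then act through C3ar1 and C5ar1, and Serping1, the C1 inhibitor, blocks C1r and C1s. In the brain, C1q is made mainly by microglia and marks synapses for removal during development and disease, and C3 and C4 are induced in reactive astrocytes and other glia.

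Library totals ran from 17150610 to 31253784 counts at 3 dpi and from 6663629 to 38589791 counts at 29 dpi, where the smallest was Sham + CD replicate 1 of the hippocampus. Levels are CPM, a gene's count relative to the total count of its library, after TMM scaling over the 96 libraries, and differences are log2 fold changes ± standard error. Called genes are those whose false discovery rate (FDR), adjusted over all genes tested in the comparison, was below 0.05 and whose log2 fold change was beyond 0.32 in either direction. The labels do not say whether each library is its own mouse or which regions share a mouse, so the p-values measure the spread between libraries, and fits across regions took the regions as independent. Region markers separated the libraries in part. Neurod6 lay at 156 to 351 CPM in the hippocampus and at most at 17.1 CPM elsewhere, Tcf7l2 at 199 to 362 CPM in the thalamus and at most at 78.8 CPM elsewhere, and the ranges of Spink8 (hippocampus), Prkcd and Synpo2 (thalamus) and Avp (hypothalamus) did not overlap those of other regions either. Those of Prox1, Hcrt, Agrp, Pmch, Pomc and Oxt did: Prox1, listed for the hippocampus (21.4 to 70.7 CPM), read 35.9 to 72.7 CPM in the thalamus, and the hypothalamic Pmch (164 to 650.0 CPM) reached 397 CPM and Hcrt (17.4 to 270.01 CPM) 103 CPM in the thalamus. The summed choroid plexus markers ranged from 217 to 6983 CPM in hippocampal Sham + VH libraries at 3 dpi, and fitting this score as a covariate changed no count of called complement genes in the hippocampus beyond 1.5 times. In whole tissue, a change in the number of cells of a type and a change in RNA per cell cannot be told apart.

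In uninjured tissue C1qa and C1qb were the most abundant of the 9 transcripts per length. Per kilobase of exon, the mean level in hippocampal Sham + VH libraries at 3 dpi was 42.4 ± 1.97 CPM for C1qb and 40.0 ± 2.11 for C1qa (SD, n = 4), and for C1qc it was 21.9 ± 1.22. Within these libraries C1qa stood at 1.67 to 2.03 times C1qc per length, and in the Sham + VH libraries of the hippocampus at 29 dpi at 2.13 to 2.499 times, without overlap. The ratio was higher at 29 than at 3 dpi in every region and group, and time and the separate cohorts of mice cannot be told apart here. C4b followed with 5.90 ± 0.983, Serping1 with 4.02 ± 1.10 and C1ra with 0.937 ± 0.241 CPM per kilobase. The lowest levels were those of C3ar1 (0.333 ± 0.0981), C3 (0.3204 ± 0.196) and C5ar1 (0.186 ± 0.0788). The spreads of C1qa and C1qb overlapped, as did those of C3ar1 and C3. The genes of the 3 C1q subunits stand in a row on chromosome 4 of mm10, C1qb at chr4:136880129-136886187, C1qc at chr4:136889804-136893065 and C1qa at chr4:136895917-136898803, all on the minus strand. C1ra (chr6:124512405-124523443) and C3ar1 (chr6:122847138-122856161) are both on chromosome 6, and C4b (chr17:34728380-34743882) and C3 (chr17:57203970-57228136) on chromosome 17. C5ar1 is at chr7:16246743-16259540 and Serping1 at chr2:84765387-84775444. C4b has a near copy in C4a, and C1ra one in C1rb. How reads that fit both copies were counted is not stated, so values of C4b and C1ra carry that uncertainty.

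Promoter windows of 300 bases, from 250 before to 50 after the start site, were found for 6 of the 9 genes in RefSeq (GRCm38.p6), and not for C1qa, C4b and Serping1. Those of C1qb and C1qc are shown because these genes moved together, and those of C3ar1 and C3 because from 3 to 29 dpi the response of C3ar1 fell and that of C3 was not called lower. Each is written 5′ to 3′ on the gene's minus strand, with a motif match in capitals on whichever strand it lies.
C1qb, chr4:136886151-136886450: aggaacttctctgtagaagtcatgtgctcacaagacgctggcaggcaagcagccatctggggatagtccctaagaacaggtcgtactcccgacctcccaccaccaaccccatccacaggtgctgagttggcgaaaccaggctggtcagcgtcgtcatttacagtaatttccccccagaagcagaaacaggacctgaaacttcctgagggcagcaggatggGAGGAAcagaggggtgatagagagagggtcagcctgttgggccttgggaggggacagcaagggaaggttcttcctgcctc
C1qc, chr4:136892865-136893164: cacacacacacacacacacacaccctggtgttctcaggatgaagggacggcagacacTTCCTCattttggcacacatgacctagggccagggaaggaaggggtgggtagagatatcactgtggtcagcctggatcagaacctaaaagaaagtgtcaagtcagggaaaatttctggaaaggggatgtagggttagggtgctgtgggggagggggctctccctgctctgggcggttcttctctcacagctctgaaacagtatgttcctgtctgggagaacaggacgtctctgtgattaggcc
C3ar1, chr6:122856108-122856407: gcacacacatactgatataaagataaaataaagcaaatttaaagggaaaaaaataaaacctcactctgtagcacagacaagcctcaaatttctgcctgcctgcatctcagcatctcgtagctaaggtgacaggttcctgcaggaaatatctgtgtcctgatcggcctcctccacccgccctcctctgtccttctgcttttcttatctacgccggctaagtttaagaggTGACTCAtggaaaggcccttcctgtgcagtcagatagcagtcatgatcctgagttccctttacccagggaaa
C3, chr17:57228087-57228386: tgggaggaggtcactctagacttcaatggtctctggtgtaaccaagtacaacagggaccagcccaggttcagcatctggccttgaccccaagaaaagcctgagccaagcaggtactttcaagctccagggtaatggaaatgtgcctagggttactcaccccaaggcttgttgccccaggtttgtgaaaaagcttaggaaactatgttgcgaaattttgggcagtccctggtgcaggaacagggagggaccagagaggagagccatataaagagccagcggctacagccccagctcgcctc
Searched on both strands were GAGGAA (a PU.1-like motif, in 28.3% of the 32851 windows in RefSeq), TTCNNNGAA (STAT-like, 8.3%), GAAANNGAA (IRF-like, 8.56%) and TGANTCA (AP-1-like, 7.81%). The PU.1-like motif stood at -30 to -25 of the start of C1qb and, on the opposite strand, at -193 to -188 of C1qc. C3ar1 held the AP-1-like motif at -22 to -16, and the window of C3 held none of the 4. Of those not shown, C1ra held the STAT-like and the PU.1-like motif after its start, and C5ar1 the IRF-like motif before it. No matches overlapped. A match of letters is no evidence of binding, and its absence says only that these letters are not in the window.

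Between regions of uninjured brain, C1ra was higher in the hippocampus and C4b lower in the thalamus than in both other regions at 3 and 29 dpi. The C1q genes were higher in the hippocampus than in both other regions at 3 dpi, and C3 was higher in the hypothalamus than in both others at 29 dpi. At 3 dpi, 5 of 9 genes were lower in the thalamus than in the hippocampus of Sham + VH mice, beside 19.4% of all genes called lower and 40.9% called either way, and 4 of 9 were lower in the hypothalamus (background 23.2% lower and 46.7% either way). C1ra differed most: its Sham + VH libraries read 3.64, 2.79, 1.88 and 2.86 CPM in the hippocampus, 0.579, 0.379, 0.882 and 0.629 CPM in the thalamus and 0.524, 0.319, 1.05 and 0.908 CPM in the hypothalamus. No thalamic or hypothalamic library reached the lowest hippocampal one, with log2 differences of -2.17 ± 0.36 and -1.96 ± 0.34 (FDR 1.58e-06 and 3.73e-06). C1qa, C1qb and C1qc were lower in the thalamus, with log2 differences of -0.46 ± 0.15, -0.47 ± 0.14 and -0.38 ± 0.14, and in the hypothalamus, with -0.53 ± 0.15, -0.60 ± 0.14 and -0.58 ± 0.14. The calls of C1qa and C1qc in the thalamus were lost without replicate 4 and that of C1qc also without replicate 2. C4b read 25.957, 32.8, 37.7 and 37.9 CPM in the hippocampus, 17.3, 21.5, 16.7 and 17.3 CPM in the thalamus and 54.1, 45.8, 47.9 and 33.3 CPM in the hypothalamus. It was the 1 gene of 9 called between hypothalamus and thalamus (log2 difference 1.31 ± 0.21, FDR 1.80e-06, background 13.9% higher and 28.6% either way), and hypothalamus and hippocampus did not pass the test (0.44 ± 0.20, FDR 0.0561), although without replicate 4 they did (0.62, FDR 0.0139), as they did with DESeq2.

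At 29 dpi the order of the regions by mean level was the same as at 3 dpi for the C1q genes, C4b, Serping1 and C3. With all libraries C3 was called between no pair of regions at 3 dpi by edgeR. Without replicate 3 C3 passed at 3 dpi between hypothalamus and hippocampus (FDR 0.0483), and without replicate 2 between hypothalamus and thalamus (FDR 0.0432). Called between thalamus and hippocampus were 2 of 9 genes, both lower (background 19.9% lower and 39.3% either way), C1ra at -2.30 ± 0.33 and C4b at -0.84 ± 0.21. Between hypothalamus and hippocampus 4 of 9 were called (background 45% either way and 22.2% lower): C1ra, C1qa and C1qc were lower and C3 was higher. The calls of C1qa and C1qc were lost without replicate 2 or 3. C3 in Sham + VH libraries read 2.14, 0.807, 1.06 and 1.63 CPM in the hippocampus, 1.54, 3.37, 4.30 and 1.66 CPM in the thalamus and 4.04, 5.97, 5.17 and 5.81 CPM in the hypothalamus. All hypothalamic libraries lay above the hippocampal ones, and hypothalamus and thalamus overlapped. The log2 difference from the hippocampus was 1.84 ± 0.39 (FDR 8.82e-05) and from the thalamus 1.01 ± 0.35 (FDR 0.0164), and the latter call was lost without replicate 1, 2 or 4. C3 and C4b made up the 2 of 9 genes called between hypothalamus and thalamus, both higher in the hypothalamus (background 17.4% higher and 32.9% either way). At 29 dpi DESeq2 added C3 between thalamus and hippocampus and C1qb between hypothalamus and hippocampus. C3ar1, C5ar1 and Serping1 were called between no pair of regions at either time by edgeR or DESeq2. C5ar1 read 0.263 to 0.676 CPM in hippocampal Sham + VH libraries at 3 dpi, so its regional differences rest on few counts.

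**Figure D1:**
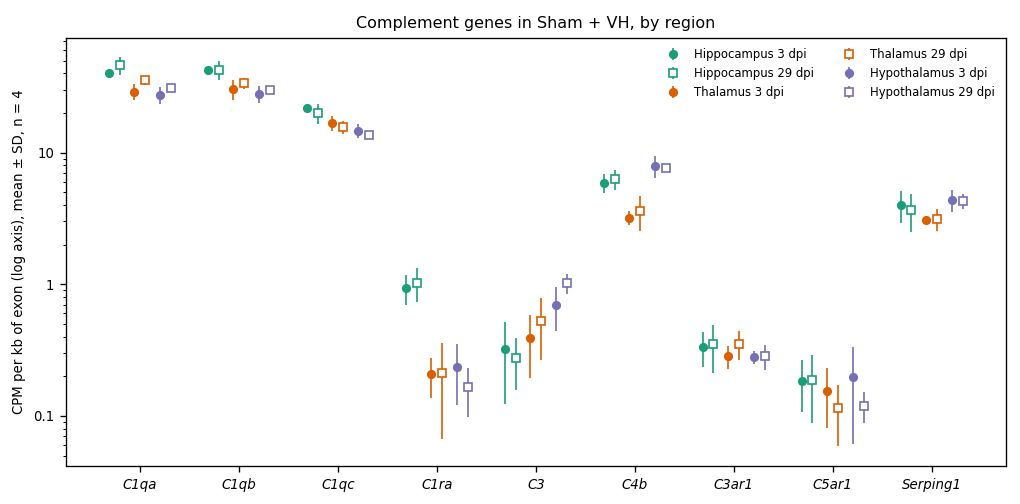
Levels of the 9 complement genes in Sham + VH libraries by brain region and time point. Points are means and bars ± SD of 4 libraries per region and time, in CPM per kilobase of exon on a log scale. C1qa and C1qb lie highest and C5ar1 lowest in the hippocampus, C1ra stands apart in the hippocampus, and C4b is lowest in the thalamus.

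The complement genes were higher after injury in the hippocampus at 3 dpi. In vehicle mice 8 of 9 genes rose, beside 8.99% of all genes tested called higher, and in candesartan mice, which have sham libraries of their own, 9 of 9 rose beside 14.4%. Averaged over both drug arms, all 9 rose (background 13.3%), by a median log2 change of 2.32 against -0.02 over all genes tested. The receptor C3ar1 rose most and the protease C1ra least.

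C1qa, the first chain of the C1q recognition molecule, read 40.4, 39.3, 44.2 and 42.3 CPM in Sham + VH and 217, 127, 237 and 159 CPM in TBI + VH. Its candesartan libraries read 39.4, 41.2, 42.9 and 36.8 CPM in Sham + CD and 163, 134, 231 and 217 CPM in TBI + CD. Injured and sham libraries did not overlap in either arm, and replicate 2 was the lowest of the injured libraries in both. C1qa rose by 2.19 ± 0.19 in vehicle mice and 2.27 ± 0.19 in candesartan mice (log2), or 4.69-fold over both arms (FDR 1.37e-09). C1qb lay at 37.6 to 47.6 CPM in the 8 sham libraries and at 145 to 259.8 CPM in the 8 injured ones, and C1qc at 37.5 to 46.7 and 134 to 239 CPM. They rose by 2.32 ± 0.12 and 2.30 ± 0.12. The chains kept close to each other over the 96 libraries, with Pearson's r of 0.990 for C1qa and C1qb, 0.989 for C1qa and C1qc and 0.990 for C1qb and C1qc, on log2 CPM centered on each region and time point, which takes out that difference in ratio between the time points. These libraries share their injury groups, so the correlations are a description.

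C4b, the component cleaved by C1s, read 25.957, 32.8, 37.7 and 37.9 CPM in Sham + VH and 256, 200.1, 271 and 237 CPM in TBI + VH. In the candesartan arm it read 32.6, 37.6, 30.6 and 34.2 CPM in Sham + CD and 269, 233, 244 and 234 CPM in TBI + CD. The groups were far apart in both arms, and the increase of 2.88 ± 0.12 and 2.90 ± 0.12 had the smallest standard errors of the 9 genes. Over both arms C4b rose 7.41-fold (FDR 3.04e-13).

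C3, on which all pathways converge, read 0.634, 1.02, 2.85 and 2.09 CPM in Sham + VH and 13.8, 5.82, 14.1 and 15.0 CPM in TBI + VH. With candesartan the values were 0.732, 1.56, 0.953 and 1.503 CPM in Sham + CD and 16.5, 7.37, 11.039 and 7.25 CPM in TBI + CD. Sham and injured libraries did not overlap, although replicate 2 of TBI + VH, at 5.82 CPM, was well below the other injured vehicle libraries. C3 rose by 2.92 ± 0.40 and 3.17 ± 0.42, and 8.27-fold over both arms (FDR 2.82e-07).

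Of the receptors, C3ar1, which binds the C3a fragment, read 0.803, 1.69, 1.58 and 1.66 CPM in Sham + VH and 18.3, 6.79, 16.5 and 11.5 CPM in TBI + VH, and 1.81, 1.60, 1.16 and 0.911 CPM in Sham + CD and 11.033, 9.37, 22.6 and 19.0 CPM in TBI + CD. The lowest injured library was above the highest sham library in each arm. C3ar1 rose by 3.40 ± 0.26 over both arms, 10.6-fold (FDR 2.10e-08). C5ar1, the receptor of C5a, was the rarest transcript and read 0.676, 0.621, 0.263 and 0.348 CPM in Sham + VH and 2.89, 2.03, 2.93 and 2.78 CPM in TBI + VH, and 0.293, 0.389, 0.159 and 0.820 CPM in Sham + CD and 2.67, 2.21, 6.07 and 2.79 CPM in TBI + CD. Sham libraries reached at most 0.820 CPM and injured ones were at least at 2.03 CPM, where 3 counts are worth 0.116 to 0.133 CPM. It rose by 2.79 ± 0.29, 6.89-fold (FDR 7.50e-07).

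Serping1, the inhibitor of C1r and C1s, read 8.07, 9.36, 7.05 and 12.9 CPM in Sham + VH and 30.1, 18.2, 28.7 and 26.4 CPM in TBI + VH, and 7.95, 8.30, 6.62 and 7.06 CPM in Sham + CD and 31.7, 20.6, 18.5 and 27.7 CPM in TBI + CD. Injured libraries were above sham libraries in both arms, and the change was 1.63 ± 0.14, 3.09-fold (FDR 1.20e-07). C1ra, the protease that activates C1s, read 3.64, 2.79, 1.88 and 2.86 CPM in Sham + VH and 5.60, 4.06, 4.30 and 3.12 CPM in TBI + VH, and 2.83, 2.07, 2.38 and 1.78 CPM in Sham + CD and 6.12, 3.996, 3.92 and 5.94 CPM in TBI + CD. The vehicle groups overlapped and the candesartan groups did not. In vehicle mice the change of 0.64 ± 0.22 did not pass the test (FDR 0.0703), and it did pass without Sham + VH replicate 1 or TBI + VH replicate 4. It also passed with the replicate number fitted as a block. In candesartan mice C1ra rose by 1.19 ± 0.23 (FDR 7.88e-04), and the difference between the arms was not called (0.54 ± 0.321, FDR 0.496). Replicate 2 of TBI + VH had the lowest value of its group in 8 of the 9 genes, and its summed microglial markers (706 CPM) were also the lowest of the 4. Without it, 8 of 9 genes rose in vehicle mice, and C1qa rose by 2.34.

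**Figure D2:**
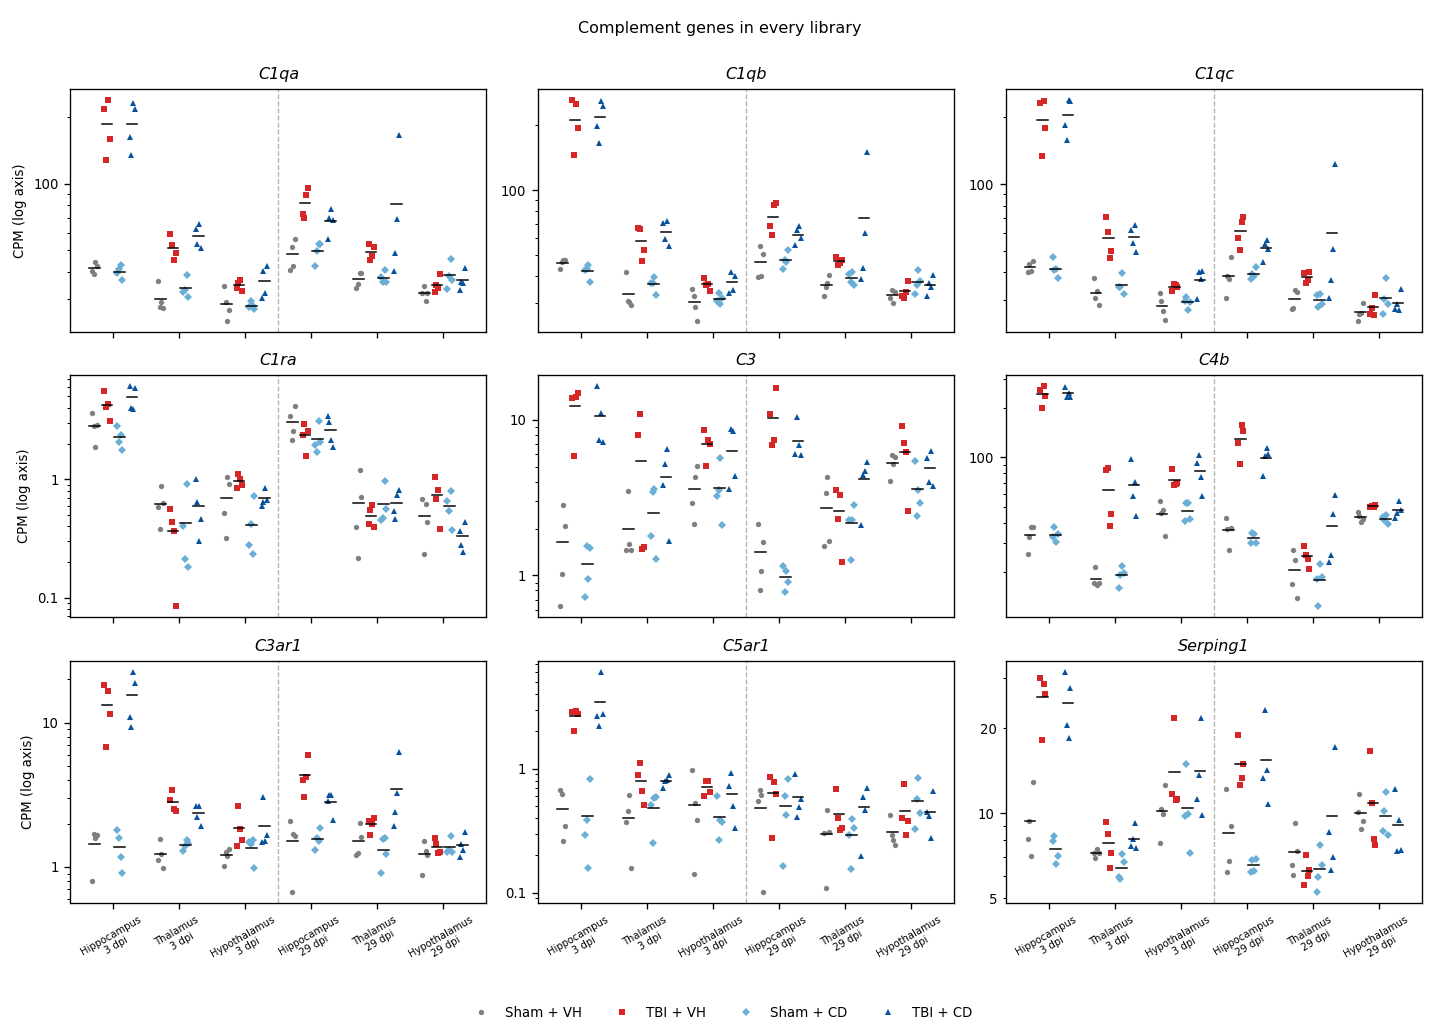
Levels of the 9 complement genes in every library. Each panel is a gene, points are single libraries and lines group means in CPM on a log scale, grouped by region, time point and the 4 groups (n = 4 each). In the hippocampus at 3 dpi the injured libraries of all 9 genes but C1ra lie above all sham libraries, and at 29 dpi those of C1qb, C3, C4b and C3ar1 do. The share of all genes in the tables that separate in this way was not counted.

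In the thalamus at 3 dpi the 3 C1q genes, C4b and C3ar1 rose, by less than in the hippocampus. In vehicle mice 5 of 9 genes rose (background 0.298%), in candesartan mice 4 (background 0.167%), and over both arms 5 (background 0.907%), with a median over the 9 of 0.82 against -0.00253 over all genes. C4b changed most and read 17.3, 21.5, 16.7 and 17.3 CPM in Sham + VH and 83.3, 86.4, 38.3 and 45.5 CPM in TBI + VH, and 16.1, 19.2, 21.9 and 19.9 CPM in Sham + CD and 97.4, 58.5, 70.4 and 44.1 CPM in TBI + CD. All injured libraries were above all sham libraries, and within TBI + VH replicates 1 and 2 stood above replicates 3 and 4. C4b rose by 1.81 ± 0.18, 3.50-fold (FDR 4.89e-05). C1qa lay at 27.3 to 38.7 CPM in sham and 45.1 to 66.0 CPM in injured libraries, without overlap, and rose by 0.78 ± 0.08. C1qb rose by 0.82 ± 0.09, C1qc by 0.78 ± 0.09 and C3ar1 by 0.97 ± 0.12, with 0.983 to 1.56 CPM in sham and 1.91 to 3.41 CPM in injured libraries. In candesartan mice alone C3ar1 did not pass the test (0.74 ± 0.17, FDR 0.135), and the interaction was not called (-0.47 ± 0.25, FDR 0.9999). The candesartan call of C1qb was lost without Sham + CD replicate 1, 2 or 4, and that of C1qc without any of 6 libraries. When the fit held only the 8 vehicle libraries, none of the 5 vehicle calls passed, with FDRs from 0.0668 to 0.115.

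C3 in the thalamus differed within TBI + VH in the same way as C4b. It read 1.45, 3.49, 1.59 and 1.45 CPM in Sham + VH and 7.95, 10.8, 1.47 and 1.53 CPM in TBI + VH, and 1.80, 3.45, 3.57 and 1.28 CPM in Sham + CD and 3.81, 5.17, 6.47 and 1.68 CPM in TBI + CD. Replicates 3 and 4 of TBI + VH were at sham levels and replicates 1 and 2 above all sham libraries, and the change of 1.10 ± 0.42 over both arms did not pass the test (FDR 0.495). C5ar1 (0.86 ± 0.24, FDR 0.153), Serping1 (0.24 ± 0.08, FDR 0.361) and C1ra (-0.16 ± 0.37) were not called either.

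In the hypothalamus at 3 dpi C4b alone passed the test. No gene of the 9 was called in vehicle mice (background 0%, 6 of 9 at an unadjusted p under 0.05 beside 3.4% of all genes, 0 by DESeq2) or in candesartan mice (background 0%, 5 of 9 unadjusted beside 5.52%, 1 by DESeq2). Over both arms 1 of 9 rose (background 0.0177%), with 8 of 9 at an unadjusted p under 0.05, beside 7.33% of all genes. DESeq2 called 3 of 9, adding C1qa and C1qc, among 16 genes in all. C4b read 54.1, 45.8, 47.9 and 33.3 CPM in Sham + VH and 85.3, 67.5, 69.1 and 70.0 CPM in TBI + VH, and 40.9, 52.6, 52.6 and 42.5 CPM in Sham + CD and 92.4, 103, 76.1 and 58.2 CPM in TBI + CD. All injured libraries were above all sham libraries. The change was 0.76 ± 0.12 (FDR 0.0387), and leaving out any of 13 of the 16 libraries took the FDR above 0.05. C1qa lay at 24.1 to 34.5 CPM in sham and 30.6 to 42.4 CPM in injured libraries, and its change of 0.34 ± 0.07 was not called (FDR 0.221).

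The effect of injury differed between regions at 3 dpi. Tested as a difference of differences in the 48 libraries, it was smaller in the thalamus than in the hippocampus for all 9 of 9 genes (background 8.59% lower) and smaller in the hypothalamus for 8 of 9 (background 9.51%), C1ra excepted. The gap was widest for C3ar1, at -2.39 ± 0.29 in the thalamus and -2.80 ± 0.29 in the hypothalamus. For C4b it was -1.05 ± 0.20 and -2.11 ± 0.20, and for C1qb -1.47 ± 0.14 and -2.02 ± 0.14. Between hypothalamus and thalamus 1 gene was called (background 0.0112%): C4b rose less in the hypothalamus (-1.06 ± 0.20, FDR 0.0467), and leaving out any 1 replicate number ended that call. The calls against the thalamus were also lost for C1ra without replicate 3 or 4, for C5ar1 without replicate 3 and for C3 without replicate 1.

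At 29 dpi 7 of the 9 genes were still higher in the injured hippocampus. In vehicle mice 6 of 9 rose (background 0.523%), in candesartan mice 3 (background 0.351%) and over both arms 7 (background 1.59%), with a median of 0.62 against -0.007 over all genes. C1ra (-0.07 ± 0.18) and C5ar1 (0.21 ± 0.29) were not called. With only the libraries compared in the fit, the calls were 3 in vehicle and 5 in candesartan mice.

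The largest change at this time was that of C3. It read 2.14, 0.807, 1.06 and 1.63 CPM in Sham + VH and 10.952, 6.91, 7.42 and 16.035 CPM in TBI + VH, and 1.14, 0.779, 1.07 and 0.910 CPM in Sham + CD and 5.99, 10.4, 6.87 and 5.96 CPM in TBI + CD. No injured library came near a sham library, and C3 rose by 2.90 ± 0.22, 7.44-fold (FDR 1.36e-06). C4b read 42.8, 36.4, 27.5 and 37.3 CPM in Sham + VH and 122, 90.9, 158 and 145 CPM in TBI + VH, and 30.3, 34.9, 34.1 and 30.037 CPM in Sham + CD and 76.7, 103, 114 and 105 CPM in TBI + CD. Its groups did not overlap, and it rose by 1.74 ± 0.12, 3.34-fold (FDR 4.37e-07). C3ar1 read 2.08, 0.672, 1.68 and 1.63 CPM in Sham + VH and 3.99, 3.04, 4.21 and 6.02 CPM in TBI + VH, and 1.30, 1.59, 1.53 and 1.86 CPM in Sham + CD and 2.88, 3.14, 3.17 and 2.11 CPM in TBI + CD. Injured libraries were above all sham libraries, TBI + CD replicate 4 by the least, and C3ar1 rose by 1.13 ± 0.17 (FDR 0.00118).

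C1qa read 40.8, 51.8, 42.7 and 56.4 CPM in Sham + VH and 72.8, 70.1, 88.5 and 95.6 CPM in TBI + VH, and 42.6, 49.5, 53.3 and 53.5 CPM in Sham + CD and 56.4, 69.9, 76.9 and 68.3 CPM in TBI + CD. Within each arm injured libraries were above sham libraries, while TBI + CD replicate 1 and Sham + VH replicate 4 were level. C1qa rose by 0.62 ± 0.09, C1qb by 0.57 ± 0.08 and C1qc by 0.55 ± 0.08. Serping1 lay at 6.18 to 12.1 CPM in sham and 10.7 to 23.2 CPM in injured libraries, and rose by 1.02 ± 0.16 (FDR 0.00182). It was called in candesartan mice (1.25 ± 0.23, FDR 0.0229) and not in vehicle mice (0.79 ± 0.23, FDR 0.21), the interaction was not called (FDR 0.911), and the call in candesartan mice was lost without any of 6 libraries. In return, C1qa, C1qb, C1qc and C3ar1 were called by edgeR in vehicle mice and not in candesartan mice. Their interactions with candesartan were not called either (FDR 0.892 for each). DESeq2 called 4 of 9 genes in candesartan mice, where edgeR called 3. The fit on only the libraries compared gave fewer calls in vehicle than in candesartan mice.

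From 3 to 29 dpi the effect of injury in the hippocampus fell for 7 of 9 genes (background 7.92% lower). The log2 change at 29 dpi minus that at 3 dpi was -2.59 ± 0.43 for C5ar1, -2.28 ± 0.324 for C3ar1, -1.77 ± 0.15 for C1qb, -1.75 ± 0.15 for C1qc, -1.61 ± 0.16 for C1qa, -1.16 ± 0.15 for C4b and -0.997 ± 0.25 for C1ra. The call of C1ra was lost without replicate 3 or 4. C3 was not called (-0.16 ± 0.40, FDR 0.864), and nor was Serping1 (-0.62 ± 0.23, FDR 0.0754), which passed without replicate 2. In injured libraries C3ar1 lay at 6.79 to 22.6 CPM at 3 dpi and at 2.11 to 6.02 CPM at 29 dpi. C3 lay at 5.82 to 16.5 CPM and at 5.96 to 16.035 CPM. The drug's route differs between the time points and cannot be told apart from time. In the thalamus (background 0.0175%) and hypothalamus (background 0.00576%) no gene of the 9 was called between time points, with 1 and 4 of 9 at an unadjusted p under 0.05 (beside 2.75% and 2.72% of all genes) and 0 and 0 called by DESeq2.

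In the thalamus at 29 dpi none of the 9 genes was called in vehicle mice, candesartan mice or over both (background 0%, 0% and 0%), while 0, 7 and 5 of 9 had an unadjusted p under 0.05 (beside 2.47%, 9.13% and 6.75% of all genes) and DESeq2 called 0, 1 and 0. C1qa read 33.7, 35.3, 39.3 and 39.4 CPM in Sham + VH and 53.2, 45.1, 46.9 and 51.5 CPM in TBI + VH, and 37.7, 36.0, 40.9 and 35.8 CPM in Sham + CD and 40.5, 48.9, 69.3 and 165 CPM in TBI + CD. TBI + CD replicate 4 stood far above every other library, and it was the highest of its group in 9 of 9 genes. Its microglial markers summed to 533 CPM, against 295, 300.3 and 358 CPM in the other 3 libraries of the group. Without it, the change of C1qa in candesartan mice was 0.50 in place of 1.10. In the hypothalamus at 29 dpi none of the 9 was called (background 0.00583% in vehicle mice, 0% in candesartan mice and 0.00583% over both), with 1, 1 and 1 of 9 at an unadjusted p under 0.05 (beside 2.79%, 6.43% and 2.94% of all genes) and 0, 0 and 0 by DESeq2. C4b lay at 40.3 to 46.8 CPM in Sham + VH and 49.8 to 51.4 CPM in TBI + VH, groups that did not overlap, but its change of 0.21 ± 0.07 was not called.

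The effect of injury on C3 and C4b was smaller outside the hippocampus at 29 dpi as well. Against the hippocampus, edgeR called 2 of 9 genes lower in the thalamus (background 0.0669%) and 2 of 9 in the hypothalamus (background 0.162%), the same genes in both. DESeq2 called 2 and 3 of 9. C3 differed by -2.45 ± 0.38 and -2.52 ± 0.37, and C4b by -1.05 ± 0.20 and -1.54 ± 0.20. The calls in the thalamus were lost without replicate 2 or 3. Between hypothalamus and thalamus 0 of 9 were called (background 0.00558%, 5 of 9 unadjusted beside 4.34% of all genes, 0 by DESeq2).

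**Figure D3:**
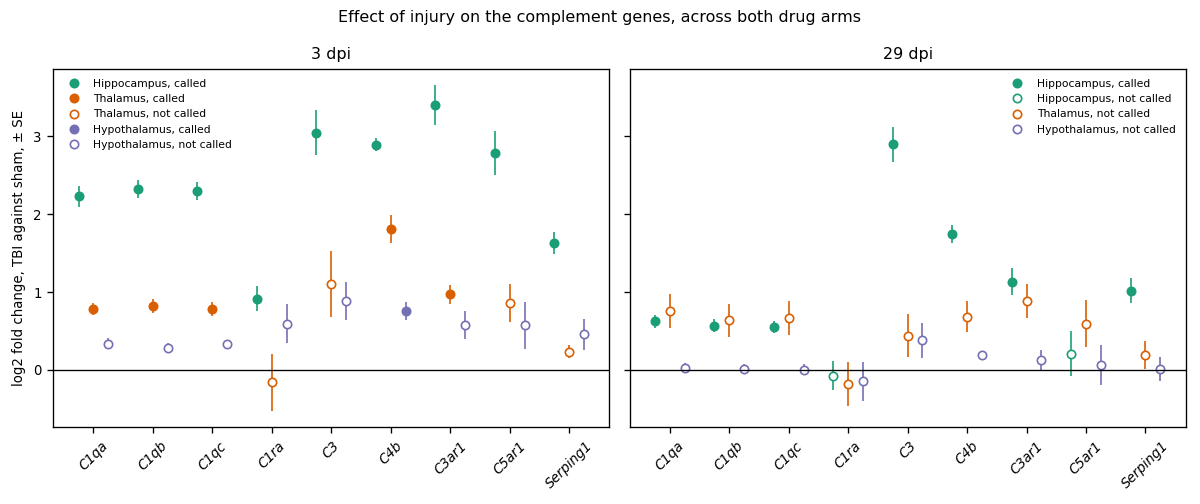
Effect of injury on the 9 complement genes, averaged over both drug arms, in each region at 3 and 29 dpi. The y axis is the log2 fold change of injured against sham libraries, bars are ± 1 standard error of the fit on 16 libraries, and filled points were called. The changes are largest in the hippocampus at 3 dpi, and C3 keeps a change of 2.90 there at 29 dpi.

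Candesartan changed none of the 9 genes by the test. Its effect was tested in sham mice, in injured mice and as an interaction with injury, in 18 comparisons and 162 tests of the 9 genes. The count called was 0, with a lowest FDR of 0.356, 17 tests at an unadjusted p under 0.05, beside 5.33% of the tests of all genes in these comparisons, and 0 called by DESeq2. The background was 1.5% of all genes called in the hippocampal sham comparison at 3 dpi and 0% in each of the other 17. DESeq2 called 450 genes in that sham comparison, where edgeR called 251, and 325 in the hippocampal interaction at 3 dpi, where edgeR called 0. In all 12 pairs of groups that differ by drug alone, all 9 genes overlapped. The share of all genes that overlap in these pairs was not counted, so this says nothing particular to the 9. In the injured hippocampus at 3 dpi C1qa differed by 0.01 ± 0.17, C4b by 0.02 ± 0.11 and C3 by -0.22 ± 0.34 between TBI + CD and TBI + VH. The standard errors set the size of change that 4 libraries a group could show, and that of C3 was wider than that of C4b.

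In injured mice at 29 dpi, 6 of 9 genes in the thalamus and 5 of 9 in the hippocampus had an unadjusted p under 0.05 between TBI + CD and TBI + VH, beside 2.24% and 5.31% of all genes. In the hippocampus C3ar1 read 3.99, 3.04, 4.21 and 6.02 CPM in TBI + VH and 2.88, 3.14, 3.17 and 2.11 CPM in TBI + CD, a log2 difference of -0.64 ± 0.23. The groups overlapped through TBI + VH replicate 2. C4b differed by -0.38 ± 0.15, C3 by -0.52 ± 0.26, and C1qa, C1qb and C1qc by -0.28 ± 0.12, -0.29 ± 0.11 and -0.27 ± 0.11. The FDR was 0.882 for each of these genes. In the thalamus at 29 dpi the differences of all 9 genes were above 0. C1qa differed by 0.72 ± 0.30 and, without TBI + CD replicate 4, by 0.11. The lowest unadjusted p of all 162 tests was that of C1ra in the hypothalamus at 29 dpi, where TBI + VH read 1.05, 0.685, 0.819 and 0.377 CPM and TBI + CD 0.366, 0.276, 0.245 and 0.440 CPM. The change was -1.18 ± 0.35 with an unadjusted p of 0.00411 and was not called.

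**Figure D4:**
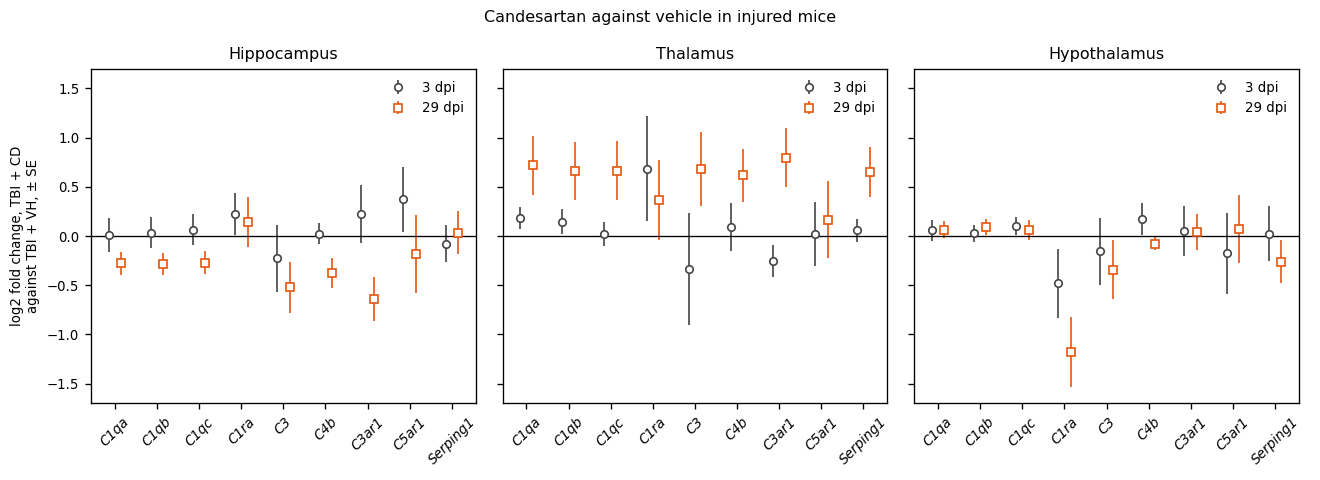
Effect of candesartan on the 9 complement genes in injured mice (TBI + CD against TBI + VH) in each region at 3 and 29 dpi. The y axis is the log2 fold change with ± 1 standard error of the fit on 16 libraries. No change was called, and the thalamic values at 29 dpi lie above 0 together.

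Other genes of the complement system were read from a list of 49 symbols, of which 48 were in the tables. In the hippocampus at 3 dpi 34 were tested, and over both arms 15 rose (beside 13.3% of all genes) and 3 fell, with a median of 0.15 against -0.02 over all genes. Like the 9 genes above, they were listed with earlier results of these data known. Among pattern recognition and initiation, the pentraxin Ptx3 (2.81 ± 0.30) and the protease C2 (1.004 ± 0.22) rose. The C4 copy C4a (1.52 ± 0.08) and Hc, which encodes C5 (1.23 ± 0.28), rose too. Of the receptors, the integrin chains Itgb2 (2.23 ± 0.12) and Itgam (1.89 ± 0.09) of complement receptor 3 rose, as did the second C5a receptor C5ar2 (1.35 ± 0.28). The ficolin Fcna, the C3 convertase protease Cfb and Itgax, a chain of complement receptor 4, were also called. Their sham libraries lay at 0 to 0.542 CPM, where 3 counts are worth 0.116 to 0.133 CPM, so no fold is given. Fcna read 0.127 to 0.266 CPM in Sham + VH and 0.267 to 0.641 CPM in TBI + VH. Cfb read 0.131 to 0.271 and 0.609 to 1.34 CPM, and Itgax 0.133 to 0.542 and 0.588 to 1.86 CPM, in the same groups. C1s1, Masp1, Clu and Cd93 were among the other genes that rose. The 3 that fell were the membrane regulators Cd46, Cd55 and Csmd3.

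At 29 dpi 6 of 33 of these genes rose in the hippocampus, beside 1.59% of all genes, and none fell. Itgax, an integrin chain of activated microglia and dendritic cells, read 0 to 0.364 CPM in Sham + VH and 2.86 to 5.97 CPM in TBI + VH, and 0.130 to 0.455 and 1.499 to 4.22 CPM in the candesartan arm. The change over both arms was called (FDR 3.23e-06), and since the sham levels were near the worth of 3 counts (0.0840 to 0.403 CPM) no fold is given. Among the others that rose were Itgb2 (0.67 ± 0.07), C4a (0.67 ± 0.13), C2 (1.12 ± 0.25) and Vtn (0.42 ± 0.10). Between 3 and 29 dpi the effect of injury fell for Ptx3, C4a, C5ar2, Itgam and Itgb2 and increased for Vtn. In the thalamus at 3 dpi 2 of 30 rose (background 0.907%), Itgam (0.61 ± 0.07) and Itgb2 (0.63 ± 0.11). In the hypothalamus at 3 dpi, and in the thalamus and hypothalamus at 29 dpi, 0 of the tested genes of the list were called over both arms, beside 0.0177%, 0% and 0.00583% of all genes called higher. With candesartan 1 gene of the list was called, in the hippocampal sham comparison at 3 dpi, beside 1.5% of all genes called there. Nothing particular to the list is read from 1 call. The gene was Cd59a, a membrane inhibitor of the terminal complex, lower in Sham + CD than in Sham + VH (-1.08 ± 0.21, FDR 0.024). Its levels were 6.74 to 7.94 and 8.54 to 17.9 CPM, and it rose in TBI + CD against Sham + CD, where Csmd1 fell.

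Most microglial, astrocyte and border macrophage markers rose along with the complement genes in the hippocampus at 3 dpi, and neutrophil markers were not called. Of 14 marker lists, those of microglia, astrocytes, border macrophages, blood monocytes and neutrophils are given here. In the hippocampus at 3 dpi 10 of 10 tested microglial markers rose over both arms, beside 13.3% of all genes, and their sum was 352 to 379 CPM in Sham + VH, 346 to 388 CPM in Sham + CD, 706 to 1065 CPM in TBI + VH and 819 to 1158 CPM in TBI + CD. Of the astrocyte markers 7 of 8 rose, with sums of 4143 to 5028 CPM in Sham + VH and 7694 to 9742 CPM in TBI + VH. Among border macrophage markers 4 of 5 rose, with sums of 5.48 to 8.86 CPM in Sham + VH and 9.35 to 14.1 CPM in TBI + VH. Blood monocyte markers were low, with 1 of 2 tested called and sums of 0.350 to 0.550 CPM in Sham + VH and 1.23 to 2.71 CPM in TBI + VH, where 3 of the 4 listed were at 0 in a Sham + VH library. The neutrophil markers summed to 0.426 to 0.932 CPM in Sham + VH and 0.343 to 1.15 CPM in TBI + VH, with 0 of 1 tested called. In the thalamus at 3 dpi 9 of 10 microglial and 1 of 8 astrocyte markers rose (background 0.907%), and in the hippocampus at 29 dpi 3 of 10 and 2 of 8 (background 1.59%). Whether the complement genes changed per cell or with the number of these cells was not tested.

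The genes whose levels followed each complement gene most closely were found by Pearson's r of log2 CPM, centered on region and time point, over the 96 libraries. C1qa was followed by Tyrobp (0.981), Ctss (0.972) and Cd68 (0.970), C1qb by Tyrobp (0.978), Ctss (0.971) and Trem2 (0.971) and C1qc by Tyrobp (0.978), Csf1r (0.971) and Ctss (0.971), most of which are markers of microglia and other phagocytes. C4b was nearest to Gfap (0.949), Mpeg1 (0.902) and Aspg (0.900), and C3 to Vim (0.876), Flnc (0.869) and Ggta1 (0.846). C3ar1 was nearest to Mpeg1 (0.939), Fcgr3 (0.928) and Lyz2 (0.926), C5ar1 to Fcgr3 (0.774), Sat1 (0.764) and Ptpn6 (0.763) and Serping1 to Slc13a3 (0.875), Lyz2 (0.864) and H2-K1 (0.864). C1ra was nearest to Vamp8 (0.567), Hfe (0.562) and Ifi27 (0.555). Without centering, so that differences between regions count too, it was nearest to Thrsp (0.911), Oaf (0.898) and Gldc (0.895). Between the scales 0 of the 3 nearest genes were shared for C1ra, C5ar1 and Serping1, and 1 or 2 of 3 for the other members. All these libraries share their injury groups and depths, so r describes likeness alone.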

How the data were processed

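The deposited values are whole-number counts per gene, made by the authors and not normalized. Reads of stranded mRNA libraries were aligned to mm10 with MapSplice and counted with HTSeq 0.9.1, per the labels and the paper's methods. Which annotation was used, whether strand was counted and how multi-mapped reads were handled is not given in the sources used here. Columns were matched to libraries by their titles, 0 were left over, and libraries were grouped by their labels. Library totals were 6663629 to 38589791 counts, and all 144 pairs of libraries within a group differed beyond sampling noise (chi-square per degree of freedom 2.64 to 48.1).

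Genes were kept by filterByExpr, scaled by TMM and tested with edgeR 4.0.16 in R 4.3.3 (glmQLFTest, 2-sided) with Benjamini-Hochberg adjustment over all genes tested, on the 16 libraries of a region and time point, or on 48 or 32 libraries for differences between regions or times. The study used DESeq2. Calls need an FDR below 0.05 with a log2 fold change beyond 0.32 either way. CPM carry no prior count, correlations one of 2. Lengths and positions are from GENCODE vM21.

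Alternatives were DESeq2 1.42.0, the FDR alone, RLE factors, all genes without a filter, fits on only the libraries compared, a replicate block, a choroid plexus covariate, CPM without TMM factors, correlations without centering, and each library or replicate number left out. Named are all 9 members, complement genes of the list called over both arms in the hippocampus (up to the 10 largest) or in any other comparison, and the 3 genes with the most similar pattern; 1 gene of the list is counted with the others but not reported here by name. The members and lists were chosen with earlier results of these data known. The quantitative PCR was not analysed here.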

Additional observations from a re-analysis of the deposited data

Results flagged for a closer look

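In 12 of 216 groups of 4 libraries (9 genes in 24 groups) 1 library stood apart from the other 3 by Dixon's criterion, where chance gives about 1 in 20, or 10.8. Standing above the others were C1qb in Sham + VH replicate 1 of the thalamus at 3 dpi (41.7 CPM), C3 in Sham + VH replicate 2 of the thalamus at 3 dpi (3.49 CPM), C4b in Sham + VH replicate 2 of the thalamus at 3 dpi (21.5 CPM), C4b in TBI + VH replicate 1 of the hypothalamus at 3 dpi (85.3 CPM), C3ar1 in TBI + CD replicate 2 of the hypothalamus at 3 dpi (3.04 CPM), C3ar1 in Sham + CD replicate 3 of the hypothalamus at 29 dpi (1.63 CPM) and Serping1 in TBI + VH replicate 2 of the hypothalamus at 3 dpi (21.8 CPM). Standing below were C3 in TBI + VH replicate 2 of the hippocampus at 3 dpi (5.82 CPM), C3ar1 in Sham + VH replicate 1 of the hippocampus at 3 dpi (0.803 CPM), C3ar1 in Sham + CD replicate 4 of the hypothalamus at 3 dpi (0.989 CPM), C5ar1 in TBI + VH replicate 2 of the hippocampus at 3 dpi (2.03 CPM) and C5ar1 in Sham + VH replicate 4 of the hippocampus at 29 dpi (0.102 CPM). Replicate 2 of TBI + VH in the hippocampus at 3 dpi and replicate 2 of Sham + VH in the thalamus at 3 dpi appear more than once.

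The effect of injury, averaged over both drug arms, differed between regions or times in 29 cases by the test of that difference (edgeR, FDR under 0.05). In all of them the value is the log2 change in the region or time named first minus that in the other. At 3 dpi the thalamus was below the hippocampus for C1qa (-1.41), C1qb (-1.47), C1qc (-1.49), C1ra (-1.04), C3 (-1.91), C4b (-1.05), C3ar1 (-2.39), C5ar1 (-1.89) and Serping1 (-1.36). The hypothalamus was below the hippocampus for C1qa (-1.87), C1qb (-2.02), C1qc (-1.95), C3 (-2.14), C4b (-2.11), C3ar1 (-2.80), C5ar1 (-2.19) and Serping1 (-1.15), and below the thalamus for C4b (-1.06). At 29 dpi the thalamus was below the hippocampus for C3 (-2.45) and C4b (-1.05), and the hypothalamus for C3 (-2.52) and C4b (-1.54). In the hippocampus 29 dpi was below 3 dpi for C1qa (-1.61), C1qb (-1.77), C1qc (-1.75), C1ra (-0.997), C4b (-1.16), C3ar1 (-2.28) and C5ar1 (-2.59).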

How the results depend on the processing

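Of the 51 counts of called complement genes, all kept within 1.5 times of the reported value with RLE factors, without the filter on low counts, with the FDR alone and, in the hippocampus, with the choroid plexus covariate. No called value changed sign under any setting run. For single genes, the choroid plexus covariate moved 10 values beyond their spread, none of them called, and left 98 within it, CPM without TMM factors moved 19 of 216 group means by over 1 SD, and without centering the highest correlation of C1ra went from 0.567 to 0.911. DESeq2 moved the count from 1 to 3 in the hypothalamus at 3 dpi over both arms, from 0 to 1 there in candesartan mice, and from 0 to 1 in the thalamus at 29 dpi in candesartan mice. With only the libraries compared in the fit, it went from 5 to 0 in the thalamus at 3 dpi in vehicle mice, and in the hippocampus at 29 dpi from 6 to 3 in vehicle and from 3 to 5 in candesartan mice, and this fit has fewer samples. The cause of the other moves was not tested. Leaving out 1 library or replicate number in turn gave 2 to 4 against 4 reported in the thalamus at 3 dpi in candesartan mice, lowest without Sham + CD replicate 1, 2 or 4, and 0 to 1 against 1 reported in the hypothalamus at 3 dpi over both arms. For the injury effect between regions it gave 0 to 0 against 1 reported for hypothalamus and thalamus at 3 dpi, 0 to 2 against 2 reported for thalamus and hippocampus at 29 dpi, lowest without replicate 2 or 3, and 2 to 4 against 2 reported for hypothalamus and hippocampus at 29 dpi, highest without replicate 4. In Sham + VH mice it gave 3 to 5 against 5 reported for thalamus and hippocampus at 3 dpi, lowest without replicate 4, 1 to 2 against 1 reported for hypothalamus and thalamus at 3 dpi, 1 to 2 against 2 reported for the same pair at 29 dpi and 2 to 5 against 4 reported for hypothalamus and hippocampus at 29 dpi, lowest without replicate 2 or 3.

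The replicate numbers were not taken to pair the libraries, since the labels tie no number to a mouse. In each of the 14 sets some same-numbered pair did not deviate together. That can also occur among paired libraries, so it does not decide whether they are paired. The mean correlation of same-numbered pairs was above that of other pairs in all sets (0.00262 to 0.125 for the same-numbered). Libraries of different arms come from different mice, and whether same-numbered libraries of different regions share a mouse is not known. With the replicate number as a block, 46 of 51 counts were the same and 5 differed by 1, for example 9 of 9 in the hippocampus at 3 dpi in vehicle mice. Depth limits the rarest genes: C5ar1, C1ra outside the hippocampus, C3ar1, and C3 in hippocampal sham libraries (15 to 65 counts at 3 dpi and 6 to 62 at 29 dpi) rest on few counts.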

Other observations

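Other complement genes differed between regions of uninjured brain (Sham + VH, edgeR). Of the 35 tested at 3 dpi, 6 were higher and 11 lower in the thalamus than in the hippocampus (40.9% of all genes called), 9 higher and 6 lower in the hypothalamus than in the hippocampus (46.7%), and 7 higher and 1 lower in the hypothalamus than in the thalamus (28.6%). At 29 dpi the counts of 35 were 8 and 10 (39.3%), 7 and 7 (45%) and 7 and 2 (32.9%). Nothing particular to the list is read from these shares. At 3 dpi C2, Colec12, Cfb, Hc, Cd59a and Cd59b were higher in the thalamus than in the hippocampus, and C1s1, Colec11, Masp1, Ptx3, C4a, C4bp, Clu, Csmd1, Csmd2, Cr2 and Itgam were lower. In the hypothalamus C2, Cfb, C4a, Hc, Cd59a, Cd59b, Csmd2, Csmd3 and Lrp1 were higher than in the hippocampus and C1s1, Colec11, C4bp, Clu, Vtn and Csmd1 lower. Between hypothalamus and thalamus C2, Cfb, C4a, Csmd1, Csmd2, Csmd3 and Lrp1 were higher in the hypothalamus and Cd55 was lower.

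C1s1, the protease that C1r activates, was lower than in the hippocampus, with log2 differences of -1.29 ± 0.31 in the thalamus and -1.12 ± 0.30 in the hypothalamus, the direction of C1ra. C4a was lower in the thalamus (-0.86 ± 0.19) and higher in the hypothalamus (0.68 ± 0.18), and reads shared with C4b are uncertain. C4bp, an inhibitor of the C4b convertase, read 0.532 to 1.10 CPM in the hippocampus and 0 in all 4 thalamic and all 4 hypothalamic Sham + VH libraries, where 3 counts are worth 0.114 to 0.132 and 0.0878 to 0.106 CPM. The membrane inhibitor Cd59a was higher than in the hippocampus by 1.10 ± 0.15 in the thalamus and 1.01 ± 0.15 in the hypothalamus, and Csmd1, a regulator of C3 and C4 deposition, was lower (-0.99 ± 0.11 and -0.43 ± 0.11).

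At 29 dpi the genes higher in the thalamus than in the hippocampus were C2, Fcna, Colec12, Cfb, Hc, Cd46, Cd59a and Cd59b, and those lower were C1s1, C1s2, Ptx3, C4a, C7, C4bp, Csmd1, Csmd2, Cr2 and Itgam. In the hypothalamus C2, Cfb, C4a, Cd59a, Cd59b, Csmd3 and Lrp1 were higher and C1s1, Ptx3, C4bp, Vtn, Csmd1, Cr2 and Itgam lower than in the hippocampus. Against the thalamus, C1s2, Cfb, C4a, Csmd1, Csmd2, Csmd3 and Lrp1 were higher in the hypothalamus and Fcna and Vtn lower. The effect of injury at 3 dpi was smaller in the thalamus than in the hippocampus for 8 of 35 genes (background 8.59%), which include Ptx3, Cfb, C4a, Clu, Itgam, Itgb2 and Cd93, and higher for Csmd3, which fell in the hippocampus. It was smaller in the hypothalamus for 12 of 35 (background 9.51%), which include Fcna, Masp1, Ptx3, Cfb, C4a, Clu, C5ar2, Itgam, Itgax, Itgb2 and Cd93, and higher for Cd55 and Csmd3.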
